A study of Mus musculus with 2 samples.

Results

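Voltage-gated calcium channel subunit genes were followed in Purkinje cells, the output neurons of the cerebellar cortex. The 10 genes were chosen by name, from the known families of channel subunits, out of 43346 gene identifiers in the tables. They were the pore-forming alpha1 genes Cacna1a, Cacna1c, Cacna1d and Cacna1g, the beta genes Cacnb2, Cacnb3 and Cacnb4, and the alpha2delta genes Cacna2d1, Cacna2d2 and Cacna2d3. Purkinje cells were sampled as 2 pools of 30 cells, taken by laser capture from male B6CASTF1/J mice, a C57BL/6 by castaneus cross, at an adult age of 14 months. The labels name no treatment, and both pools carried spike-in RNA and were made into libraries from total RNA with a SMARTer Ultra Low kit. They form a single group, and the labels give both the same donor identifier, so a standard deviation (SD, n = 2) is the spread between these pools and may be technical. Because each value came from a pool of cells, fewer expressing cells and less RNA per cell cannot be told apart.

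A voltage-gated calcium channel opens when the membrane is depolarised and lets calcium into the cell. The alpha1 subunit holds the pore and the voltage sensors and sets the channel type. High-voltage-activated channels (P/Q-type from Cacna1a, L-type from Cacna1c and Cacna1d) carry a cytoplasmic beta subunit, which binds the linker after the first repeat of alpha1 and helps bring the channel to the membrane, and an extracellular alpha2delta subunit. Low-voltage-activated T-type channels, such as that of Cacna1g, work without a beta subunit. P/Q-type current is the main calcium current of Purkinje cells, and mouse lines with mutations in Cacna1a (tottering), Cacnb4 (lethargic) and Cacna2d2 (ducky) are ataxic.

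Pool 1 gave 31503819 expected counts and pool 2 gave 28709397, and the members took 0.0352% and 0.0349% of the gene counts. All 10 Purkinje markers, Calb1 and Pcp2 among them, were at a TPM (an abundance corrected for transcript length and library depth) of 1 or more in both pools, with a summed TPM of 57826 in pool 1 and 55251 in pool 2. Markers of other cells of the cerebellum were listed as well. The summed TPM of 11 Bergmann glia and astrocyte markers was 2361 in pool 1 and 4201 in pool 2, with 10 of the 11 at TPM 1 or more in both pools and Gfap at 0.50 and 0.47. For 9 granule cell markers the sums were 40.6 and 48.7, with 6 of 9 at TPM 1 or more in both pools and the defining marker Gabra6 at 8.99 and 8.96. For 7 interneuron markers they were 159.6 and 432.5, of which Npy gave 134.97 and 411.36, with 3 of 7 at TPM 1 or more in both pools. For 5 red blood cell genes they were 2453 and 16.3, with 4 of 5 at TPM 1 or more in both pools. Oligodendrocyte markers summed to 37.3 and 53.9, their precursors to 1.65 and 2.00, microglia to 5.30 and 3.61 and vessel cells to 21.2 and 14.8. The part that such RNA plays in the levels of the channel genes was not tested.

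The stretches of sequence that the results turn on are shown next, from GENCODE transcripts or RefSeq promoters on mouse build GRCm38 (mm10), 5′ to 3′ on the gene's strand. The first set shows what separates the beta-dependent from the beta-independent pores: 54 coding bases around the beta-binding motif of the high-voltage-activated alpha1 genes, with capitals for the glycine-tyrosine codons and the tryptophan-isoleucine codons.
Cacna1a: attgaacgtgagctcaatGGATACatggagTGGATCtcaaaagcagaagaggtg
Cacna1c: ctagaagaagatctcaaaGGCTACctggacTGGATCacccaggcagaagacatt
Cacna1d: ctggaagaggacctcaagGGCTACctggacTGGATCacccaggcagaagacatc
The motif (glycine, tyrosine, any 2 residues, tryptophan, isoleucine) occurred once in each of these translated proteins, at residue 393 in Cacna1a, 466 in Cacna1c and 459 in Cacna1d, and 0 times in Cacna1g. The pore motif with a glutamate occurred 4 times in each of Cacna1a, Cacna1c and Cacna1d, whereas Cacna1g had 2 glutamate and 2 aspartate motifs.

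The second set is a pair of 97-base exons of Cacna1a that code for alternative versions of an EF-hand-like stretch in the channel's carboxyl tail. They are shown because the authors' tables put nearly all counts that span this stretch on transcripts with the upstream version, within a limit of the annotation given with the values. Capitals mark the 37 positions at which the pair differ when laid side by side without gaps.
Upstream exon, chr8:84614695-84614791, plus strand: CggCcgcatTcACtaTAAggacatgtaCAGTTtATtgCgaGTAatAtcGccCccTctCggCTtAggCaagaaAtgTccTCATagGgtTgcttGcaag
Downstream exon, chr8:84615574-84615670, plus strand: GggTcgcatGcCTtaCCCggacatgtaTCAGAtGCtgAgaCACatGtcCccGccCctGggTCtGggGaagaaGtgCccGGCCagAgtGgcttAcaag

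The third set holds 3 coding segments of Cacna1g whose use the tables left unresolved, each a multiple of 3 bases that keeps the reading frame. The 21-base and 54-base segments lie in the linker between the third and the fourth repeat of the channel.
21-base extension, chr11:94425764-94425784, minus strand: gtaaggagaagcagatggccg
54-base exon, chr11:94423671-94423724, minus strand: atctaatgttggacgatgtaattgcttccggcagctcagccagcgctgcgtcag
69-base exon, chr11:94439709-94439777, minus strand: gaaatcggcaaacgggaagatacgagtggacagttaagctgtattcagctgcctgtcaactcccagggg

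The fourth set belongs to Cacnb4, in which alternative starts and a pair of alternative 20-base exons separate the transcripts. Capitals in the exons mark the 13 positions that differ, and capitals in the 300-base promoter windows (250 bases before to 50 after a RefSeq start) mark CG dinucleotides.
Exon of the main transcript, chr2:52465894-52465913, minus strand: CaaaaCAGAAGCAgAAAgtG
Exon of the minor transcript, chr2:52467144-52467163, minus strand: GaaaaATTTCCTTgCTCgtT
Inner promoter, chr2:52558562-52558861, minus strand: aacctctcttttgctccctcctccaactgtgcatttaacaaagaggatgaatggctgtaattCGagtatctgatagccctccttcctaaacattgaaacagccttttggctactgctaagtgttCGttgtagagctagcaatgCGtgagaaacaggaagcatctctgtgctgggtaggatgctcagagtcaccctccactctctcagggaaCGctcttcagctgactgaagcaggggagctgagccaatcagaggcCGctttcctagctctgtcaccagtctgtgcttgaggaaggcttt
Outer promoter, chr2:52676094-52676393, minus strand: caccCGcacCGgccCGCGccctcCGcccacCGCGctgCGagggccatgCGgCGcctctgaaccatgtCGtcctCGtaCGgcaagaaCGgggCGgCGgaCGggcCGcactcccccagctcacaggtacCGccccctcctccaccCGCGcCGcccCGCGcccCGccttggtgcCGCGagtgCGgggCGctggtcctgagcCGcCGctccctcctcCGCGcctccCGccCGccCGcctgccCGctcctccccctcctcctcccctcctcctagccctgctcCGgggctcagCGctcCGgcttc

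Of the 10 members, 5 reached TPM 1 in both pools: the T-type pore Cacna1g, the P/Q-type pore Cacna1a, the beta genes Cacnb4 and Cacnb2, and the alpha2delta gene Cacna2d2. The other 5 members stayed under that threshold in both pools. For comparison, 30.3% of 21474 protein-coding genes reached TPM 1 in both pools, and the median of those that did was 4.59 in pool 1 and 5.80 in pool 2. The highest members, Cacnb4 and Cacna1g, thus stood above that median in both pools, by mean TPM of 13.8 ± 0.467 (SD, n = 2) and 11.8 ± 1.31 (SD, n = 2). Cacna1a lay just above it, at 4.66 in pool 1 and 5.93 in pool 2.

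**Figure D1:**
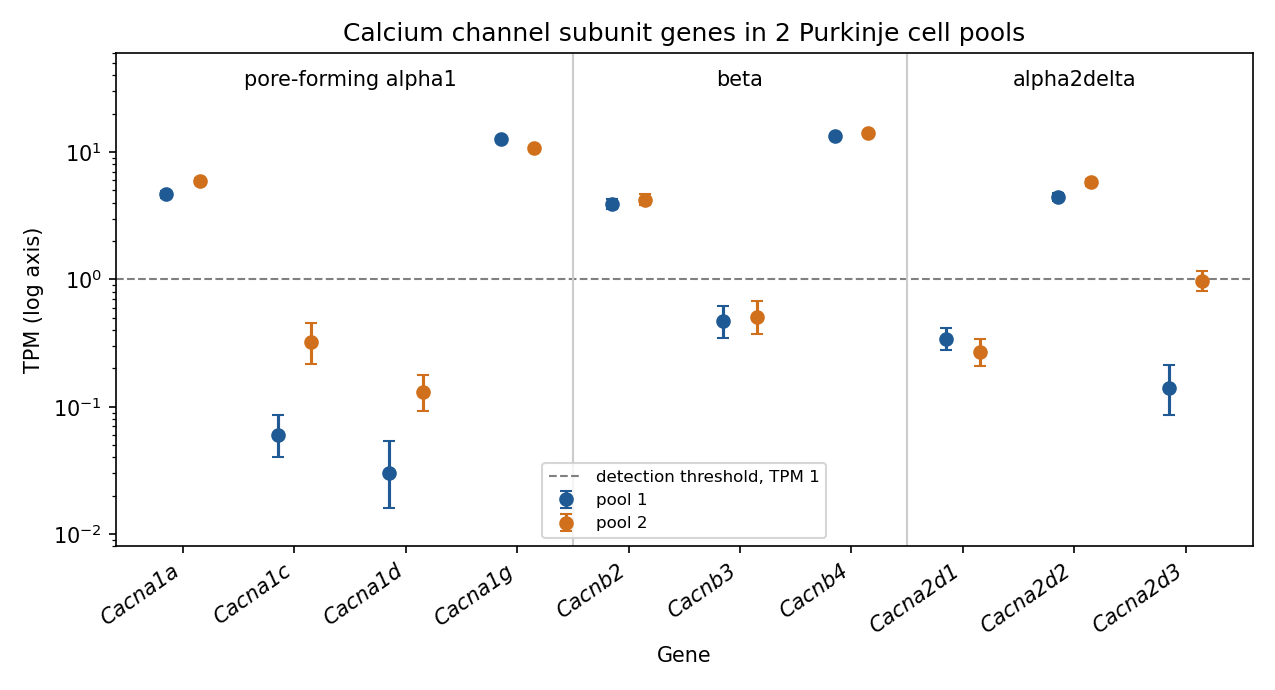
TPM (log axis) of each of the 10 subunit genes in pool 1 (blue) and pool 2 (orange), grouped as pore-forming alpha1, beta and alpha2delta genes. Bars are exact Poisson 95% intervals of the counts carried over to TPM, which cover counting error only, and the dashed line is TPM 1; 5 genes lie above the line in both pools, and Cacna2d3, Cacna1c and Cacna1d show the widest gaps between pools.

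Among the pore-forming genes, Cacna1g had the highest level. Cacna1g (ENSMUSG00000020866.13, chr11:94408391-94474198, minus strand) codes for the Cav3.1 pore, whose T-type current opens near resting potential. Its TPM was 12.70 in pool 1, from 4066 counts, and 10.85 in pool 2, from 2990 counts. Of all protein-coding genes, 91.6% had a lower TPM in pool 1 and 89.6% in pool 2.

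Cacna1a (ENSMUSG00000034656.12, chr8:84388440-84640246, plus strand) codes for the P/Q-type pore Cav2.1. Its TPM was 4.66 in pool 1, from 1115 counts, and 5.93 in pool 2, from 1414 counts, with a mean of 5.29 ± 0.898 (SD, n = 2). It lay under Cacna1g in both pools, by 2.73 times in pool 1 and 1.83 times in pool 2. Both pools thus gave the T-type transcript a higher TPM than the P/Q-type transcript, and their values did not overlap.

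The L-type pores were barely represented. Cacna1c (ENSMUSG00000051331.10, chr6:118587240-119196418, minus strand), which codes for Cav1.2, had 30 counts in pool 1 and 31 in pool 2. Its TPM nevertheless read 0.06 and 0.32, because the effective length that the authors' table used was 11766 bases in pool 1 and 2747 in pool 2. The long coding transcript Cacna1c-207 held 83.3% of the gene's TPM in pool 1 and 6.25% in pool 2, where the 2374-base processed transcript Cacna1c-223 held 68.8%. The difference in TPM between the pools was therefore a difference in which transcript a few reads were assigned to, while the ratio of the scaled counts was 0.992 (95% interval 0.581 to 1.70).

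Cacna1d (ENSMUSG00000015968.12, chr14:30039939-30491455, minus strand), which codes for Cav1.3, had a TPM of 0.03 in pool 1, from 11.7 counts, and 0.13 in pool 2, from 38.6 counts. It was the lowest member by mean, at 0.08 ± 0.0707 (SD, n = 2). Its last exon shares bases with Chdh on the other strand, 589 in all over the exons of both genes, and Chdh itself had 17.3 and 12.3 counts. Without strand, which the labels do not state, reads from that stretch cannot be told apart, so the level of Cacna1d is uncertain beyond its counting error.

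Among the beta genes, Cacnb4 was first and Cacnb2 second in both pools, and Cacnb3 was far lower. Cacnb4 (ENSMUSG00000017412.11, chr2:52428320-52676831, minus strand) had a TPM of 13.46 in pool 1, from 4259 counts, and 14.12 in pool 2, from 3741 counts. The pools were close, and both lay above Cacna1g, by 1.06 times in pool 1 and 1.30 times in pool 2.

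The level of Cacnb4 carries a limit. Its last exon overlaps A430018G15Rik, a noncoding transcript on the opposite strand, over 1433 bases between 52430724 and 52434749 of chromosome 2, which is 18.2% of the main Cacnb4 transcript and 1433 of the 1713 exon bases of A430018G15Rik. That gene was listed with 2384 counts in pool 1 and 3038 in pool 2, at a TPM of 48.47 and 71.58. The posterior SD of the Cacnb4 count in the authors' tables was 26.2 and 27.1 reads, but without strand, reads from the shared bases cannot be assigned to one gene or the other. With all counts of A430018G15Rik given to Cacnb4, an alternative chosen after seeing the data, the gene would hold 6643 and 6779 counts.

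Cacnb2 (ENSMUSG00000057914.11, chr2:14603088-14987908, plus strand), a beta gene best known from heart, had a TPM of 3.93 in pool 1, from 454 counts, and 4.24 in pool 2, from 459 counts. Its mean was 4.08 ± 0.219 (SD, n = 2). By gene TPM, which counts noncoding transcripts too, the ratio of Cacnb4 to Cacnb2 was 3.42 in pool 1 and 3.33 in pool 2. Retained-intron transcripts, annotated as noncoding, held 38.3% of Cacnb2 TPM in pool 1 and 8.27% in pool 2. The main coding transcript Cacnb2-203 had a TPM of 2.30 and 3.16, so the ratio need not be as steady for coding transcripts. Cacnb3 (ENSMUSG00000003352.9, chr15:98630840-98644529, plus strand) had a TPM of 0.47 and 0.51, from 49 and 46 counts.

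Among the alpha2delta genes, Cacna2d2 (ENSMUSG00000010066.11, chr9:107399612-107529343, plus strand) had the highest level, with a TPM of 4.44 in pool 1, from 944 counts, and 5.80 in pool 2, from 1061 counts. Its mean was 5.12 ± 0.962 (SD, n = 2). By gene TPM it followed Cacna1a closely, at 0.953 of the TPM of that gene in pool 1 and 0.978 in pool 2. These levels overlapped between the pools, so Cacna1a and Cacna2d2 were not separated in the order. By the main coding transcripts alone, Cacna2d2-208 lay above Cacna1a-201 in both pools. Its TPM was 4.36 against 3.30 in pool 1 and 5.80 against 5.01 in pool 2.

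Cacna2d1 (ENSMUSG00000040118.11, chr5:15934691-16374511, plus strand), whose protein binds gabapentin, had a TPM of 0.34 and 0.27, from 102 and 69 counts. Cacna2d3 (ENSMUSG00000021991.8, chr14:28904943-29721864, minus strand) had a TPM of 0.14 in pool 1, from 21 counts, and 0.97 in pool 2, from 122 counts. Both values lay under TPM 1, with pool 2 just under it, so among the undetected members Cacna2d3 came closest to the threshold. The lowest member inside the threshold, Cacnb2, lay well above it.

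By mean TPM the order was Cacnb4, Cacna1g, Cacna1a, Cacna2d2, Cacnb2, Cacna2d3, Cacnb3, Cacna2d1, Cacna1c and Cacna1d. Of the 9 neighbouring pairs in that order, the values of the pools overlapped in Cacna1a with Cacna2d2, Cacna2d3 with Cacnb3, Cacna2d1 with Cacna1c, and Cacna1c with Cacna1d. Cacna2d3 and Cacnb3, and Cacna2d1 and Cacna1c, changed places between the pools. The widest gap fell between Cacnb2 and Cacna2d3, with a ratio of 28.1 in pool 1 and 4.37 in pool 2.

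Each subunit class was dominated by a single gene. Shares were taken of the summed TPM of all genes of a class, the members with the other family genes. Cacna1g made up 70.2% of the alpha1 sum in pool 1 and 61.7% in pool 2, and Cacna1a made up 25.8% and 33.7%. Cacnb4 made up 74.9% and 74.2% of the beta sum, and Cacna2d2 made up 89.7% and 82.2% of the alpha2delta sum. The beta shares moved least between the pools, with an SD of 0.525 percentage points for Cacnb4 against 6.03 for Cacna1g and 5.33 for Cacna2d2. All these shares count every transcript of a gene, coding or not.

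**Figure D2:**
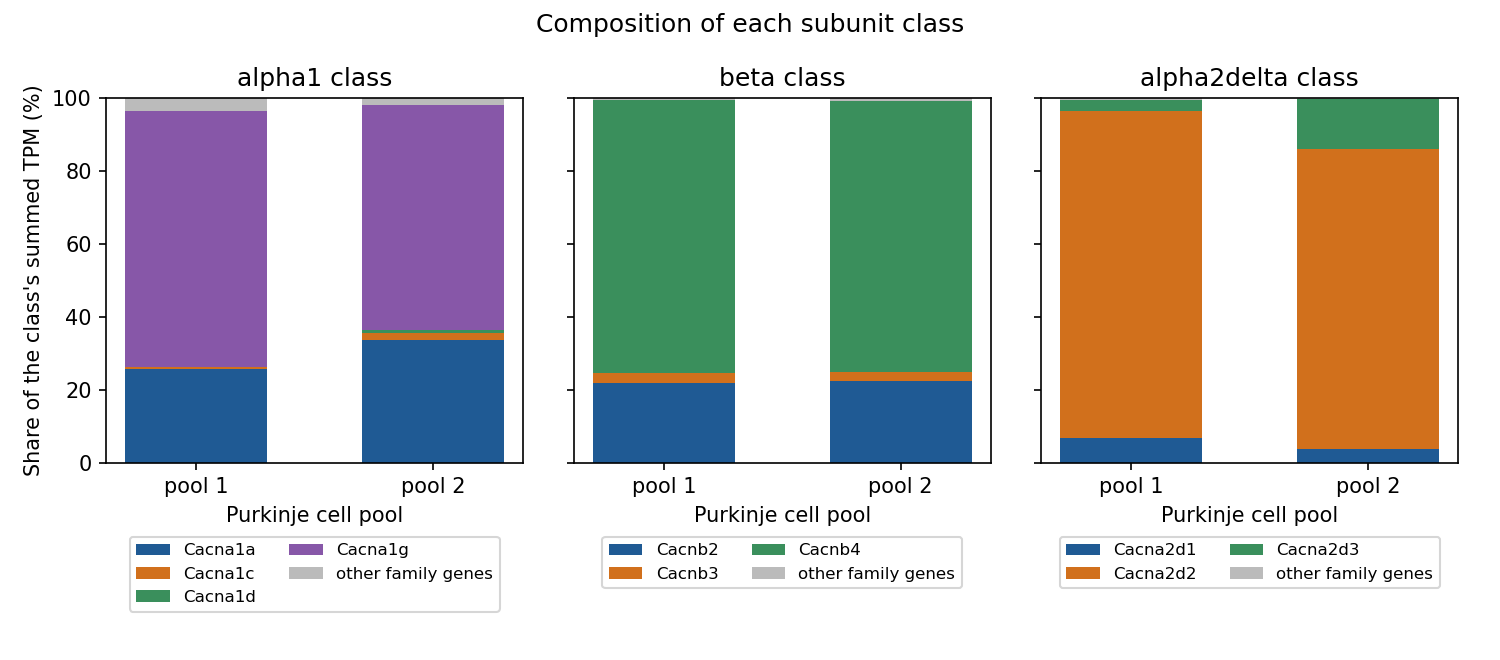
Share of the summed TPM of each subunit class (percent) taken by each gene, for the alpha1, beta and alpha2delta classes, with 1 stacked bar per pool. Cacna1g, Cacnb4 and Cacna2d2 fill the largest part of their class in both pools, and the grey parts, the family genes outside the 10 members, are thin.

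Set against the genes of high-voltage-activated pores, which pair with auxiliary subunits, the beta genes summed to 3.37 times the alpha1 TPM in pool 1 and 2.84 times in pool 2. The alpha2delta genes summed to 0.929 and 1.05 times that same alpha1 TPM. In gene TPM the beta class therefore exceeded the high-voltage-activated pores in both pools, while the alpha2delta class lay close to them. Coding transcripts held 70.8% of Cacna1a TPM in pool 1 and 84.5% in pool 2, so these ratios need not hold for coding transcripts alone. These are ratios of transcript abundance, and the beta ratio shares the limit given for Cacnb4.

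Within a class, the members were alike in sequence to unequal degrees. By global alignment of proteins translated from the GENCODE transcripts, Cacna1c and Cacna1d were identical at 69.8% of aligned residues, while Cacna1g shared 31.4% to 32.8% with the other 3 pores. The 3 beta proteins shared 67.0% to 74.6%. Cacna2d1 and Cacna2d2 shared 55.9%, and Cacna2d3 shared 32.3% with Cacna2d1 and 33.3% with Cacna2d2. At the level of bases, no pair of members had a run of 50 identical bases in common.

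The pools were then compared as libraries. With 1 group there is no contrast between conditions, and the two-sided exact binomial test used here, given library totals scaled by the trimmed mean of M-values (TMM), compares these libraries and not conditions. Across the 14495 genes that had 10 or more counts over both pools, 65.8% differed at a Benjamini-Hochberg adjusted p under 0.05, 33.3% being higher in pool 2 and 32.5% higher in pool 1. Of the 10 members, 6 differed, 3 in each direction, which is near that background. The median log2 ratio of pool 2 over pool 1 was -0.03 for the members and -0.01 for all genes tested.

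**Figure D3:**
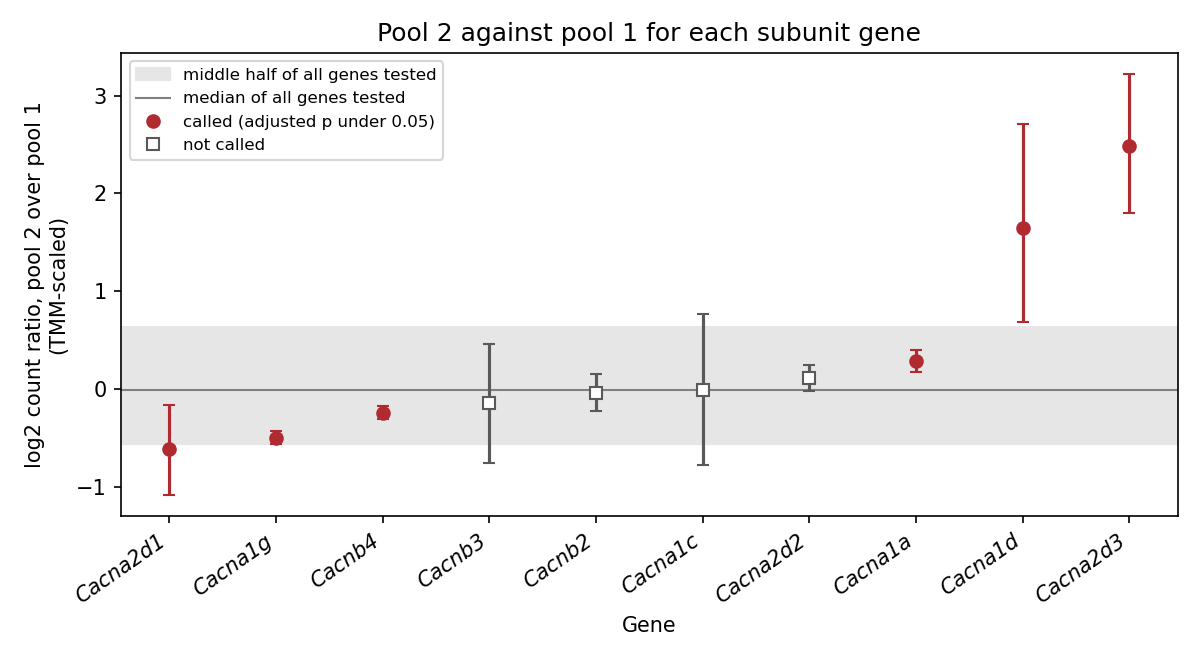
Log2 ratio of the TMM-scaled counts in pool 2 over pool 1 for each member, with exact 95% intervals for counting error. Filled red circles are members that differed between the libraries and open squares those that did not; the grey band is the interquartile range of all genes tested, -0.57 to 0.63, and Cacna1d and Cacna2d3 lie above it while Cacna2d1 lies just under it.

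The widest differences belonged to members of low level, and genes of few counts spread widely between these libraries in general. The interquartile range of the log2 ratio was -1.42 to 1.16 over genes with 10 to 100 counts in total, among them Cacna1d, and -0.43 to 0.65 over genes with 100 to 1000, among them Cacna2d3 and Cacna2d1. Cacna1d, at 1.64, and Cacna2d1, at -0.62, lay outside the range of their genes. Cacna2d3, at 2.48, lay beyond the 95th percentile of its genes, which was 1.64. Counts of Cacna2d3 were 5.58 times higher in pool 2 (95% interval 3.49 to 9.33, adjusted p = 7.65e-17 by the exact binomial test). Counts of Cacna1d were 3.12 times higher in pool 2 (1.60 to 6.55, adjusted p = 5.12e-04, exact binomial test), and with the counts of Chdh added, chosen after seeing the data, the ratio was 1.69 (1.05 to 2.76). Scaled by spike-in totals, the log2 ratio of Cacna1d was 0.87 against 1.64, and the adjusted p was 0.0994. Counts of Cacna2d1 were 1.54 times higher in pool 1 (1.12 to 2.12, adjusted p = 0.0102, exact binomial test), with an adjusted p of 0.0938 when scaled by total counts. Summed Bergmann glia and astrocyte markers were 1.78 times higher in pool 2 in the same libraries, and their part in the differences of Cacna2d3 and Cacna1d was not tested.

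Among members of higher level the differences were smaller. Over genes with 1000 to 10000 counts in total, the interquartile range of the log2 ratio was -0.34 to 0.31. Cacna1g, at -0.5, lay under that range but above the 5th percentile, -0.83, and Cacna1a and Cacnb4 lay within the range. Counts of Cacna1g were 1.42 times higher in pool 1 (1.35 to 1.49, adjusted p = 1.60e-46, exact binomial test). By the same test 9 of the 10 Purkinje markers were higher in pool 1, against 32.5% of all genes tested. Any link between the markers and the difference in Cacna1g was not tested. Counts of Cacna1a were 1.22 times higher in pool 2 (1.12 to 1.32, adjusted p = 2.78e-06, exact binomial test), but with spike-in totals as the scale its log2 ratio turned from 0.28 to -0.49. Counts of Cacnb4 were 1.19 times higher in pool 1 (1.13 to 1.24, adjusted p = 1.77e-13, exact binomial test), whereas its log2(TPM + 1) was 0.06 higher in pool 2, and with the counts of A430018G15Rik added its ratio was 0.98 (0.947 to 1.01). Scaled by total counts, the log2 ratio of Cacnb4 was -0.05, with an adjusted p of 0.164 by the exact binomial test. The direction of Cacna1g and of Cacna2d3, and their call, held under all 4 scalings tried.

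For Cacna2d2 the count ratio was 1.08 (0.987 to 1.18, adjusted p = 0.124, exact binomial test), for Cacnb2 it was 0.971 (0.851 to 1.11) and for Cacnb3 it was 0.901 (0.589 to 1.38). These members and Cacna1c did not pass the test with TMM scaling. Under the exact binomial test with other scales, Cacna2d2 was called higher in pool 2 with total counts (log2 ratio 0.31, adjusted p = 6.60e-06) and higher in pool 1 with spike-in totals (-0.66, adjusted p = 1.70e-23). With spike-in totals Cacnb2 (-0.81, adjusted p = 1.26e-16) and Cacnb3 (-0.92, adjusted p = 3.92e-03) were called higher in pool 1 by the exact binomial test. Scaling mattered for the whole set: with spike-in totals the median of all genes moved to -0.78 on the log2 scale, 7 members called were higher in pool 1 and 1 was higher in pool 2, and with total counts the median moved to 0.19 and 4 called members lay higher in pool 2 and 1 lay higher in pool 1.

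Within the main genes, the tables split reads among annotated transcripts, and the precision of that split differed by gene. For Cacna1a, 94.1% of counts fell on the coding transcript Cacna1a-201 in pool 1, and 97% did so in pool 2. Its share of TPM was lower, 70.8% and 84.5%, because the short retained-intron transcript Cacna1a-207 held 18.2% and 8.77% of TPM from 3.28% and 1.34% of counts. The posterior SD of the Cacna1a-201 count was 1.69 and 1.29 reads, so this split was sharp in the authors' estimate.

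Of the counts on Cacna1a transcripts that span the alternative 97-base exons shown above, 99.0% in pool 1 and 98.6% in pool 2 were on transcripts with the upstream exon. The one transcript with the downstream exon, the 549-base fragment Cacna1a-210, was at 0 counts in both pools. A full-length transcript with the downstream exon has no entry in the tables, and its reads outside that exon would fall on the 7926-base Cacna1a-201, so these shares do not measure the use of the exons. The antisense transcript Gm16183, which lies over the same stretch, had 3.11 and 2.00 counts.

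For Cacna1g the split was not resolved. The expected counts put 85.6% of reads in pool 1 and 99.4% in pool 2 on Cacna1g-210, which lacks the 21-base, the 54-base and the 69-base segments. The posterior mean counts in the same tables put 43.0% and 35.1% there, with a posterior SD of 915 and 491 reads, with 25.2% and 34.0% on Cacna1g-205, 19.7% and 18% on Cacna1g-209 and the rest on other transcripts. The 21-base extension was in 13.0% and 0% of the expected counts but in 23.4% and 21.8% of the posterior mean counts. The 54-base exon was in 1.37% and 0.638% of the expected counts but in 32.7% and 42.4% of the posterior mean counts. By both estimates the 69-base exon had the lowest share of these segments in pool 1, at 0% of expected and 7.45% of posterior mean counts. In pool 2 the posterior mean put it at 8.19%. Cacna1g-206, which holds it, had a posterior mean count of 103 with a posterior SD of 114 in pool 1, and 85.6 with 104 in pool 2. The order of the segments was therefore not resolved. A further stretch of 51 coding bases, not shown, is held by Cacna1g-210 and absent from Cacna1g-205. It was in 98.6% and 99.4% of the expected counts but in 74.8% and 66% of the posterior mean counts.

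**Figure D4:**
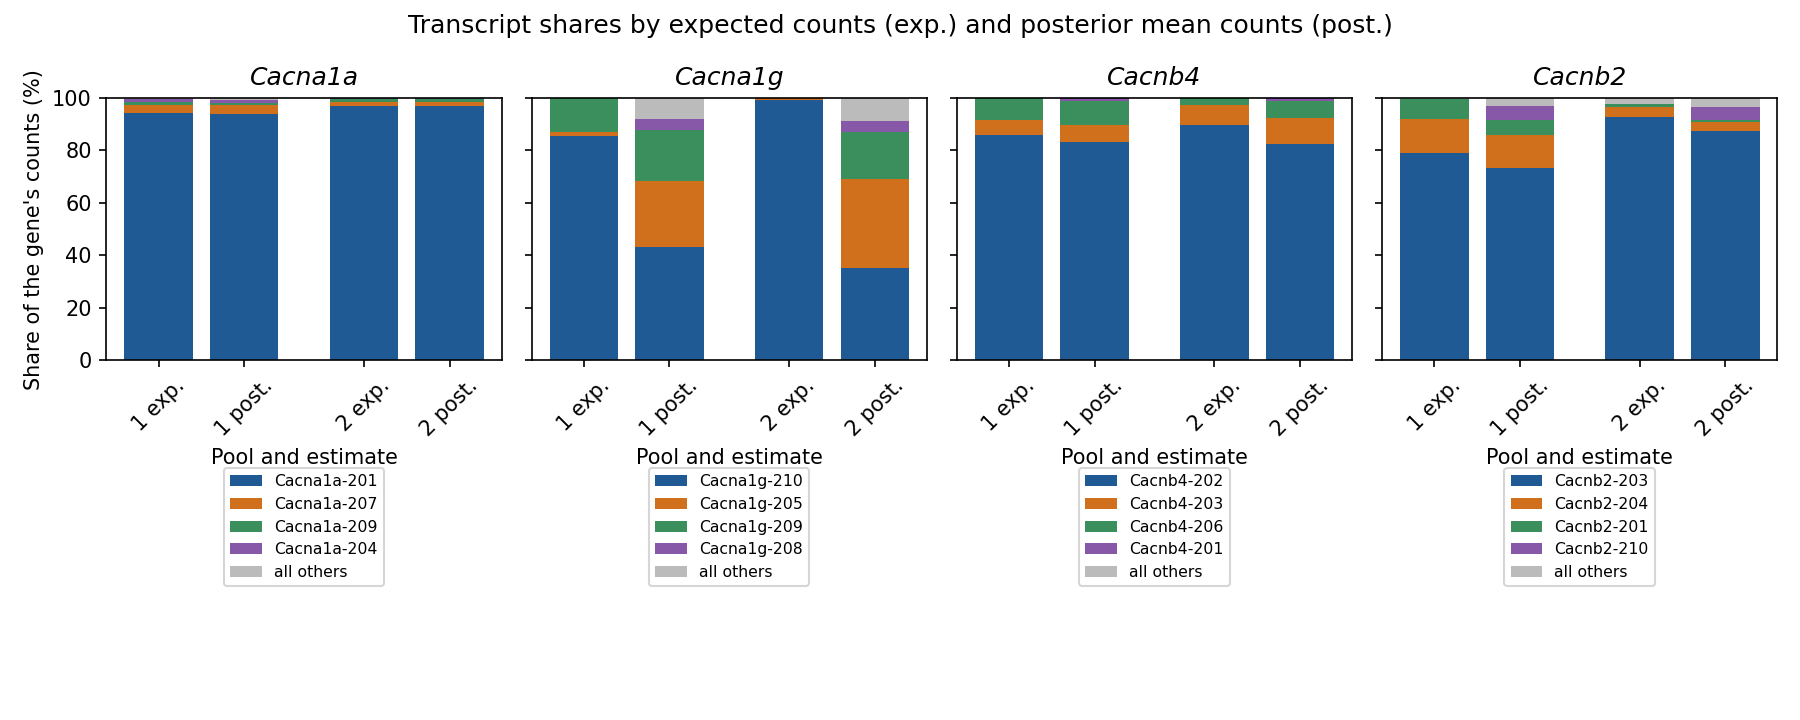
Share of the counts of Cacna1a, Cacna1g, Cacnb4 and Cacnb2 (percent) on the 4 transcripts with the highest mean share and on all others, for pools 1 and 2, by expected counts (exp.) and by posterior mean counts (post.). The paired bars match for Cacna1a and are close for Cacnb4 and Cacnb2, while for Cacna1g the main transcript drops from 85.6% to 43.0% in pool 1 and from 99.4% to 35.1% in pool 2.

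For Cacnb4, the estimates were closer. Cacnb4-202 held 86.1% of the gene's TPM in pool 1 and 87.3% in pool 2. The first of the 20-base exons shown above was in 91.5% (exact binomial 95% interval 90.6 to 92.3) and 97.2% (96.7 to 97.7) of the counts on transcripts that span this stretch, and the alternative exon, found in Cacnb4-206, in 8.54% and 2.77%. By posterior mean counts the alternative exon was at 9.35% and 6.54%, so the gap between the pools narrowed. The posterior mean count of Cacnb4-206 was 398 with a posterior SD of 171 in pool 1, and 244 with 248 in pool 2. Its share in pool 2, and with it the gap, was therefore not resolved, and the binomial intervals do not cover that uncertainty.

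The same transcripts divide by start. Those from the inner start of Cacnb4 took 91.5% of its counts (pool 1) and 97.2% (pool 2), and those from the outer starts took 8.54% and 2.80%. The posterior means for the outer starts were 10.4% and 7.47%, with the limit just given for Cacnb4-206. The inner RefSeq start lies 51 bases upstream of the annotated start of Cacnb4-202, while the outer RefSeq start nearest to Cacnb4-206 lies 439 bases downstream of the annotated start of that transcript. The inner promoter shown above has 49.7% G and C and 5 CG dinucleotides, and the outer one 78.3% and 40. The median of 32851 RefSeq promoters of that length was 52.7% and 7, so most Cacnb4 counts came from transcripts next to a window near that median. The outer window, rich in CG, lies wholly downstream of the annotated start of Cacnb4-206, which held nearly all counts of the outer starts. Its RefSeq start is the annotated start of Cacnb4-205, which had 0 counts in pool 1 and 1 in pool 2.

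For Cacnb2, the outer start led. The transcripts from its outer start, chiefly Cacnb2-203, took 79.0% of its counts (pool 1) and 92.7% (pool 2), and those from inner starts 21% and 7.33%. The RefSeq promoter at the outer start (chr2:14604056-14604355) has 71.7% G and C and 35 CG dinucleotides. Retained-intron transcripts held 38.3% of Cacnb2 TPM in pool 1 and 8.27% in pool 2, on 20.5% and 5.10% of its counts, so a part of Cacnb2 TPM was assigned to transcripts annotated as noncoding.

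Among the other members, Cacna2d2-208 held 98.4% and 100% of the TPM of Cacna2d2, and 95.5% and 96.4% of its posterior mean counts. Cacna2d3 had a single annotated transcript. Cacnb3-202 and Cacna1d-202 held all TPM of their genes in both pools, but by posterior mean counts Cacnb3-202 held 77.9% and 74.9% and Cacna1d-202 held 57.8% and 51.3%, so these splits were not resolved at such low counts. For Cacna2d1, the transcript with a 21-base coding exon, Cacna2d1-203, held 64.7% of TPM in pool 1 and 0% in pool 2, but its posterior mean count was 35.4 with a posterior SD of 18.5 in pool 1 and 10.6 with 10.1 in pool 2, so the switch was not resolved.

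The other family genes that were listed were near zero, and of the Cacng genes only Cacng1 and Cacng6 were listed. Of 10 other genes, Cacna1b, Cacna1e, Cacna1f, Cacna1h, Cacna1i, Cacna1s, Cacnb1, Cacna2d4, Cacng1 and Cacng6, 0 reached TPM 1 in either pool. The highest was Cacng1, the gamma subunit of skeletal muscle, at 0.58 and 0.32 from 27 and 13 counts. Cacna1f, the retinal L-type pore, had 0 counts in both pools, which allows up to 3 counts in each. Of the 8 with at least 10 counts in total, 0 were higher in pool 2, 3 were higher in pool 1 (Cacna1b, Cacna1i and Cacng1, of which Cacna1b and Cacna1i were named after their values were seen) and 5 did not pass the exact binomial test. Over all genes tested, 33.3% were higher in pool 2 and 32.5% were higher in pool 1. The 3 of 8 higher in pool 1 lay near the latter share, whereas the 0 of 8 higher in pool 2 lay under the former. The median log2 ratio of these 8 genes, all of few counts, was -1.2, against -0.01 for all genes tested.

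Genes whose products bind or regulate these channels were present at uneven levels. Of 27 such genes, 14 reached TPM 1 in both pools. Among the highest were Gng13, a G protein gamma subunit, at a mean TPM of 38512 ± 1326 (SD, n = 2), the calmodulin gene Calm2 at 7428 ± 1115 (SD, n = 2), and Snap25, a release-site protein, at 1439 ± 303 (SD, n = 2). Calmodulin is the calcium sensor that the tails of high-voltage-activated pores bind. Rem2 and Gem, small G proteins that inhibit these channels, and Rimbp2, a release-site scaffold, had 0 counts. Of the 22 tested between the libraries, pool 2 was higher in 3, pool 1 was higher in 12, and 7 did not pass, against the 33.3% and 32.5% of all genes given above.

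Within a list of 30 other channel and receptor genes, the levels most like those of the leading members were found by Euclidean distance in log2(TPM + 1) over the 2 pools. Nearest to Cacnb4 were the sodium channel gene Scn1a, at a distance of 0.22, and the potassium channel gene Kcna1, at 0.46. Nearest to Cacna1g were Kcna1, at 0.32, and Scn1a, at 0.37. Nearest to Cacna1a were the potassium channel gene Kcnc1, at 0.50, and the sodium channel gene Scn8a, at 0.65. Scn1a had a TPM of 11.43 and 14.00, and Kcna1 had 10.10 and 11.73, so the transcripts of these fast channels lay in the same range as Cacnb4 and Cacna1g; with 2 pools the distance describes levels and no covariation.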

How the data were processed

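The authors' tables, 1 for genes and 1 for transcripts per pool, used mouse build mm10 and GENCODE M4, as a deposited text file states, and the aligner and quantifier are not given in these sources. The deposited tables hold expected counts, per the file headers, which are estimated reads and need not be whole. They also hold deposited TPM and FPKM values, per the file headers, which are scaled by effective length and depth. Each transcript's percent of the TPM of its gene, the posterior mean values and the posterior SD of the counts were deposited by the authors too. Depth was 31503819 and 28709397 expected counts. Rows with numeric identifiers (0.000412% and 0.000194% of counts) and spike-ins (0.211% and 0.411%) entered neither library sizes nor tests.

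GENCODE M21, on that build, gave names, coordinates and transcript structures; of 92 deposited member transcripts, 92 had an M21 entry and 84 the same length. Promoters came from RefSeq GRCm38.p6, where 8 of the 10 members had an entry, and proteins were translated from the GENCODE transcripts. Expected counts were rounded to whole numbers. Genes with 10 or more counts over both pools were compared by a two-sided exact binomial test given totals scaled by TMM (edgeR 4.0.16), with p-values adjusted after Benjamini and Hochberg and called under 0.05; DESeq2 1.42.0 size factors, total counts and spike-in totals were alternatives. The test was tried on simulated data. Intervals are exact, 95%, and cover counting error only, since no molecular identifiers are stated.

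The members, the lists and the rule for named genes were chosen with earlier results of these data known. That rule took all members, the highest of the other family genes, the 4 highest of the genes that bind or regulate the channels (1 is not reported here), and the 2 genes nearest to each of the 3 highest members.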

Additional observations from a re-analysis of the deposited data

How the results depend on the processing

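The count of 5 members at TPM 1 in both pools became 8 at a threshold of 0.1 and 2 at a threshold of 5. With spike-in totals the log2 count ratio of pool 2 over pool 1 turned to -0.49 for Cacna1a and -0.66 for Cacna2d2, from 0.28 and 0.11. For Cacnb4 it was -0.25 on counts but 0.06 on log2(TPM + 1) and 0.07 on log2(TPM + 0.1), and -0.03 with the counts of A430018G15Rik added. By posterior mean TPM the mean class shares were 59.3% for Cacna1g, 72.7% for Cacnb4, 23.1% for Cacnb2 and 80.0% for Cacna2d2, and over the listed members alone Cacnb4 had 75.1%. The cause of each of these shifts was not tested. Of 198 values recomputed under alternatives, 35 were counted as moved, which for levels and shares means by more than the spread between pools. A change of direction was counted for 4, all in members called in the main or the alternative setting, while 4 gained a call or count and 5 lost one. The ratios of Cacna1c, Cacnb2 and Cacnb3, not called with TMM scaling, also changed sign with total counts and on log2(TPM + 1). Those sign changes are not among the 4. Leaving out 1 of 2 pools moves a mean by less than their SD by construction, so it says nothing about stability. The number of members that differed between the libraries stayed within 1.5 times of 6 under all scalings and count minimums tried. No paired analysis was possible because both pools belong to a single group. Depth limits Cacna1c, Cacna1d, Cacna2d1, Cacna2d3 and Cacnb3, each with at most 122 counts in a pool.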
